A study of Mus musculus with 18 samples.

Results

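Keratins are the cytoplasmic intermediate filament proteins of epithelial cells. A filament is built from pairs of a type I and a type II keratin, so the families are expressed together, and the pair in use changes with the kind of epithelium. Krt5 with Krt14 is the pair of basal cells, Krt8 with Krt18 or Krt19 is the pair of simple epithelium, Krt4 with Krt13 marks stratified cells above the basal layer, and Krt6a, Krt6b, Krt16 and Krt17 are raised in wounded or stressed stratified epithelium. In the mouse lung, Krt5 and Krt14 are known from the basal cells of the trachea, while the alveolar epithelium holds simple keratins.

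The members were all protein-coding genes of the GENCODE vM21 annotation whose symbol is Krt followed by a number and at most 1 letter, which leaves out the keratin-associated genes. The deposited tables held 53 such genes of 46603 genes in all. In at least 1 sample, 25 of them reached 1 CPM and 20 reached 10 CPM. CPM, the usual unit of counts scaled to a common library total, is used in these limits before any further scaling. Just inside the limit stood Krt88 with a highest value of 1.47 CPM, and just outside it Krt12 with 0.954 CPM. The 28 genes below 1 CPM are not described further. The genes lie in 2 clusters (GRCm38): 27 type I genes at chr11:99232761-100269871, and 25 type II genes at chr15:101347444-102004482 with the type I gene Krt18 beside them at chr15:102028180-102032027. Of the 25 members at or above 1 CPM, 10 were type I and 15 were type II.

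The 18 samples were RNA-seq libraries of mouse lung epithelium grown in 3D with growth factor-reduced Matrigel and supporting lung mesenchymal endothelial cells. The mice carried a human EGFR gene with the T790M and L858R changes in 1 Col1a1 locus behind a lox-stop-lox cassette, so that Ad-Cre switches the mutant on and Ad-GFP leaves it off. There were 10 organoid libraries, 1 per condition. They came from NGFR negative tracheal cells (club organoids, Ad-GFP and Ad-Cre), NGFR positive tracheal cells (basal organoids, Ad-GFP and Ad-Cre), Sca1 negative distal lung cells (alveolar type 2 or AT2 organoids, Ad-GFP and Ad-Cre), and Sca1 positive distal lung cells, known as bronchioalveolar stem cells or BASCs. The BASC libraries were 2 mixed cultures (Ad-GFP and Ad-Cre) and, after Ad-Cre only, 1 culture of alveolar and 1 of bronchiolar form. Per the paper, sorted cells were split into an aliquot for either virus. The Ad-GFP and Ad-Cre libraries of a population are thus not independent sorts, though some comparisons below count them as replicates. There were 8 tumoroid libraries: 7 cultures regrown after Ad-Cre organoids had been instilled into immunocompromised nude mice and had formed tumors (3 from AT2 cells, 3 from mixed and 1 from bronchiolar BASCs), and 1 culture of a tumor induced by Ad-Cre in the lung of the allele's own mouse (autochthonous). The mice given virus in the lung were adults and the support cells neonatal. Whether replicate tumoroids came from separate recipients was not given in the sources used here. Some tumoroid titles share a number that may mark a single mouse, and these were counted as separate samples. The p-values thus measure the spread between these libraries. In these bulk libraries, fewer cells of a type and less RNA per cell cannot be told apart.

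Some libraries went in part against their labels or stood apart. The club organoids had only 2.56 and 4.42 CPM of Scgb1a1, the club cell secretoglobin. Other club genes were high in them: Cyp2f2 at 2986.5 and 2666, Scgb3a2 at 775 and 665, and Scgb3a1 at 635 and 787 CPM. The basal organoids had 3013 and 1854, 591 and 455, and 238 and 234 CPM of these genes. Krt5 was higher in both club organoids than in either basal organoid, a difference that did not pass its test. The AT2 tumoroids carry the sort label NGFR negative, which elsewhere names tracheal cells, but had 9837 to 65488 CPM of the surfactant gene Sftpc. AT2 tumoroid 3 had 34.3 CPM as the geometric mean of 9 epithelial genes, against 107.7 to 216.2 CPM in the other 17 libraries, and 4364 CPM of the fibroblast collagen Col1a1 against 290.5 to 2548 CPM. All organoids were sequenced on HiSeq and all tumoroids on DNBSEQ, so that platform and tumor state cannot be told apart. Total expected counts were 27772660 to 97191624 in organoids and 15327265 to 23355938 in tumoroids.

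The upstream sequences of 2 keratins are shown, because Krt5 marks basal cells and Krt20 was at nearly the same level in both bronchiolar cultures. RefSeq promoter sequences (GRCm38.p6) were at hand for 14 of the 25 members. Each line gives the 250 bases before the start in the direction of transcription, and both genes lie on the minus strand. Capitals mark the letters ATAAA on the transcribed strand within the last 40 bases, or the motif TATAAA, which overlaps it.
Krt5, chr15:101712906-101713155: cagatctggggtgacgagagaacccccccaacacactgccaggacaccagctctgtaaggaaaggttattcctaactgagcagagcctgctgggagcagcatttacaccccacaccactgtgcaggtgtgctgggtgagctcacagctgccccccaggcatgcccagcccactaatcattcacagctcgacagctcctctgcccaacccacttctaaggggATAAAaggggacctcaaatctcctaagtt
Krt20, chr11:99438154-99438403: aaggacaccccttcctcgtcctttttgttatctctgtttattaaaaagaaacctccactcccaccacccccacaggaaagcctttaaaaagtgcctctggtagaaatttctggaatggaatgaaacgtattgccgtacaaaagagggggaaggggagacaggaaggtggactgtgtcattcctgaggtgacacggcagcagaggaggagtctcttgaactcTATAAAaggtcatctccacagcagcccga
The letters ATAAA stood in this window in 9 of the 14 keratins (Krt5, Krt7, Krt10, Krt13, Krt20, Krt23, Krt75, Krt78 and Krt84) and in 5.5% of 32851 mouse promoters. Within all 250 bases and on both strands, Krt5 held neither the TATA box letters TATAAA, nor the AP-1 motif TGANTCA, nor the CCAAT box, nor the GC box letters GGGCGG, which 12.4%, 6.75%, 33.8% and 32.7% of mouse promoters held. Krt13 had TGANTCA at both of its listed starts and Krt7 had GGGCGG 4 times. Several listed starts, among them those of Krt14, Krt7 and Krt8 and the second of Krt13, lie inside the gene as GENCODE draws it, so their windows are not upstream of the whole gene. These are matches of letters, chosen after the expression values were known.

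The keratins set the airway cultures apart from the alveolar ones by amount as well as by kind. In TPM, which scales transcript numbers to a fixed total after correcting for gene length, all 53 keratins together made up 1.04% to 1.12% of all transcripts in the 4 tracheal organoids, 0.921% and 0.979% in the mixed BASC organoids, 1.04% in the bronchiolar BASC organoid and 1.04% in the bronchiolar tumoroid. They made up 0.143% and 0.167% in the AT2 organoids, 0.214% in the alveolar BASC organoid, 0.338% and 0.401% in AT2 tumoroids 2 and 1, 0.340% to 0.513% in the mixed BASC tumoroids and 0.180% in the autochthonous tumoroid. The lowest share, 0.0935%, was that of AT2 tumoroid 3, the library with low epithelial genes. Simple keratins were 48.8% to 58.4% of keratin TPM in tracheal organoids, and 89% to 97.3% in the AT2 organoids, the alveolar BASC organoid and the 7 tumoroids other than the bronchiolar one. Basal keratins were 28.1% to 35.1% and stress keratins 11.3% to 13.8% in the tracheal organoids. In the bronchiolar tumoroid they were 13.7% and 6.96%, and in its organoid counterpart 7.73% and 8.53%.

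**Figure D1:**
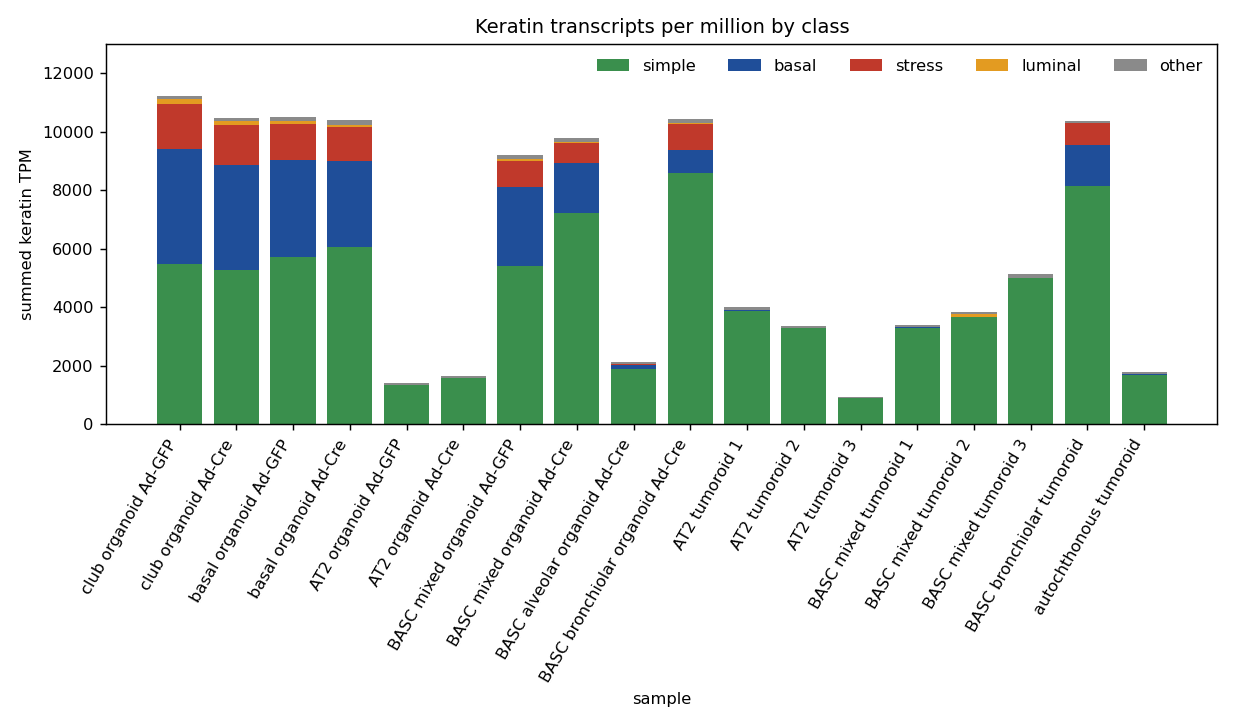
Summed TPM of the 53 keratins in each of the 18 libraries, stacked by class (simple, basal, stress, luminal and all others). The tracheal, mixed BASC and bronchiolar cultures reach 9208 to 11229 TPM, and all other libraries lie at or below 5129 TPM, nearly all of it simple keratin.

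Against this background the balance of the 2 filament types hardly moved. Summed type II TPM was 0.678 to 0.911 of summed type I TPM in all 18 libraries, although the genes that made up each sum differed. The most abundant keratin was Krt19 in 12 libraries and Krt8 in 6.

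**Figure D2:**
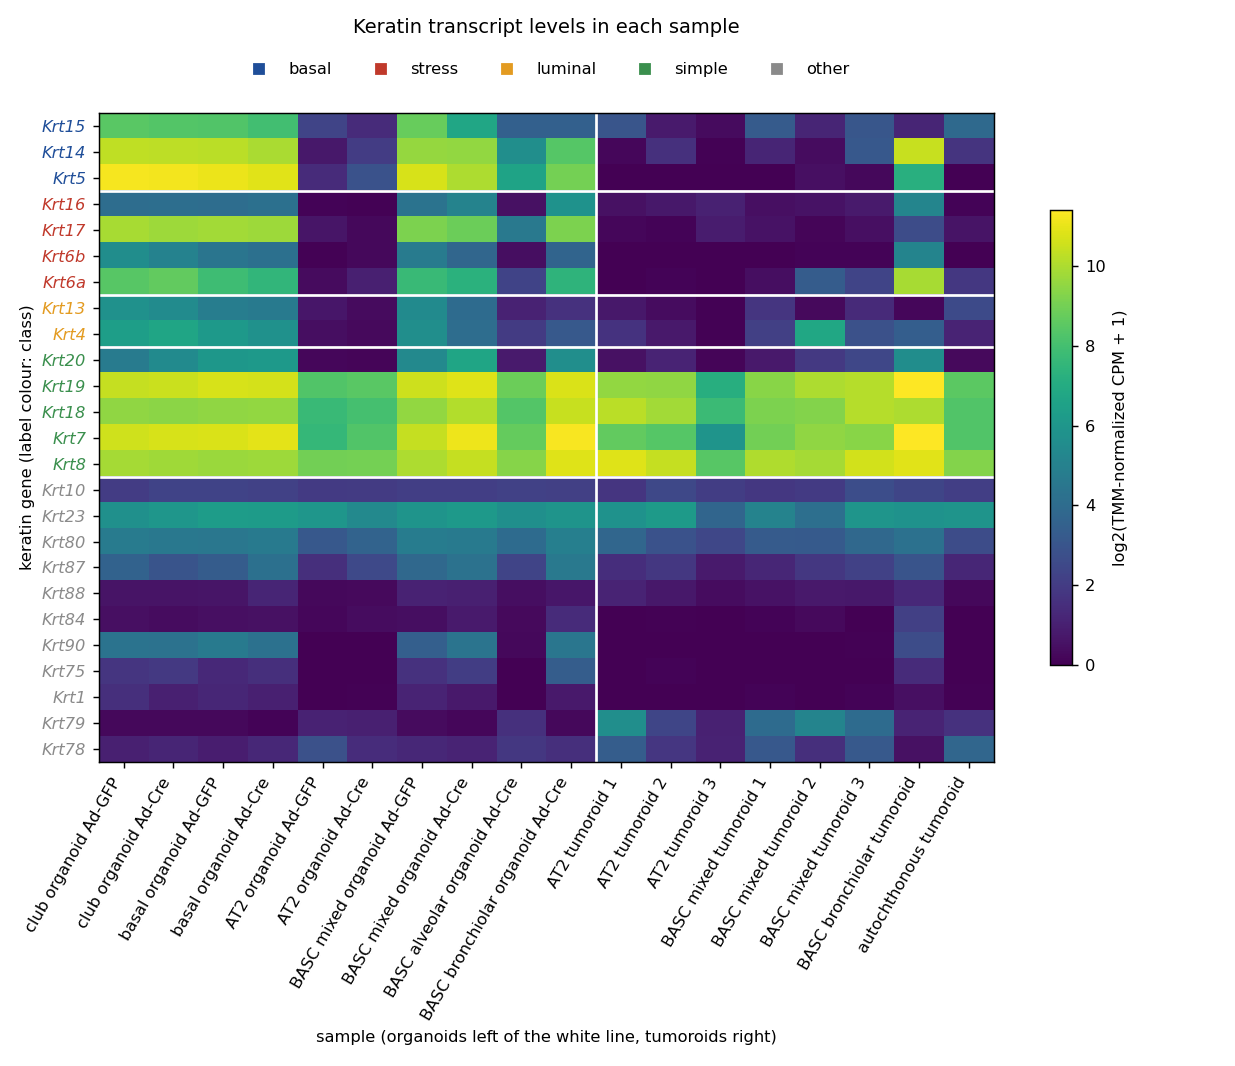
Level of the 25 keratins that reached 1 CPM (rows, by class) in the 18 libraries (columns, organoids left and tumoroids right of the white line), as log2 of CPM plus 1. Basal and stress keratins are bright in the 4 tracheal, 2 mixed BASC and 1 bronchiolar organoids and in the bronchiolar tumoroid; Krt7, Krt8, Krt18 and Krt19 are bright throughout.

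The basal keratins come first. Krt5 (ENSMUSG00000061527, chr15:101707070-101712898), the type II keratin that defines basal cells, was at 2397 and 2343 CPM in the club and 2127 and 1866 CPM in the basal organoids, Ad-GFP before Ad-Cre. CPM values here are scaled by the trimmed mean of M-values (TMM). In distal organoids it was at 1.62 and 6.38 CPM in AT2, 1647.5 and 1018 CPM in mixed BASC, 96.5 CPM in alveolar BASC and 509.9 CPM in bronchiolar BASC cultures. It had 0 counts in 5 tumoroids (the 3 of AT2 origin, mixed BASC tumoroid 1 and the autochthonous one), which allows up to 0.132 to 0.187 CPM (3 counts; such limits cover counting error only). It was at 0.371 and 0.170 CPM in mixed BASC tumoroids 2 and 3, and at 144 CPM in the bronchiolar tumoroid. Every tracheal organoid thus lay above every distal organoid, and the bronchiolar tumoroid alone among tumoroids exceeded 1 CPM.

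Krt14 (ENSMUSG00000045545, chr11:100203162-100207548), the type I partner of Krt5, was at 1262 and 1235 CPM in club and 1184 and 991 CPM in basal organoids. It was at 0.671 and 3.04 CPM in AT2, 771 and 756 CPM in mixed BASC, 48.4 CPM in alveolar BASC and 337 CPM in bronchiolar BASC organoids. The AT2 tumoroids had 0.146, 2.03 and 0.0622 CPM, the mixed BASC tumoroids 1.28, 0.289 and 7.76 CPM, and the autochthonous tumoroid 2.25 CPM. The bronchiolar tumoroid had 1408 CPM, above every organoid. In TPM the club Ad-GFP organoid was higher than this tumoroid (1413.9 against 1315.8). So among the tumoroids Krt14 and Krt5 were both highest in the same library. Krt14 stood at its series maximum there in CPM only, and Krt5 did not.

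The ratio of Krt5 to Krt14 in TPM differed between organoids and several tumoroids. It was 1.38 to 1.46 in the 4 tracheal organoids and 1.03 to 1.84 in the 6 distal ones, although Krt14 itself ranged from 0.671 to 1262 CPM over them. In the bronchiolar tumoroid it was 0.0780, and in mixed BASC tumoroid 3 it was 0.0178, there with 4 counts of Krt5 and 183 of Krt14. In mixed BASC tumoroid 2, with 9 and 7 counts, it was 0.968. The other 5 tumoroids had 0 counts of Krt5 and 1 to 49 counts of Krt14. Between the bronchiolar organoid and the bronchiolar tumoroid, 1 library each and therefore without a test, Krt5 was 0.282 times as high (95% counting interval 0.272 to 0.293) and Krt14 4.18 times as high (4.11 to 4.26). Krt5 shares 12.2% and Krt14 13.9% of its 50-base stretches with other genes, mainly Krt6a and Krt16.

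Krt15 (ENSMUSG00000054146, chr11:100131758-100135928), a type I keratin of basal and progenitor cells, did not follow that pair. It was at 243 to 356 CPM in tracheal and at 431 and 105 CPM in mixed BASC organoids, yet only 10.4 CPM in both the alveolar and the bronchiolar BASC organoid, and 4.11 and 1.65 CPM in AT2 organoids. The autochthonous tumoroid had 14.1 CPM, the AT2 tumoroids 7.11, 0.756 and 0.249 CPM, the mixed BASC tumoroids 8.78, 1.28 and 7.21 CPM and the bronchiolar tumoroid 1.3 CPM. The bronchiolar tumoroid, with the highest Krt14 CPM of the series, was thus within the range of the AT2 tumoroids for Krt15.

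**Figure D3:**
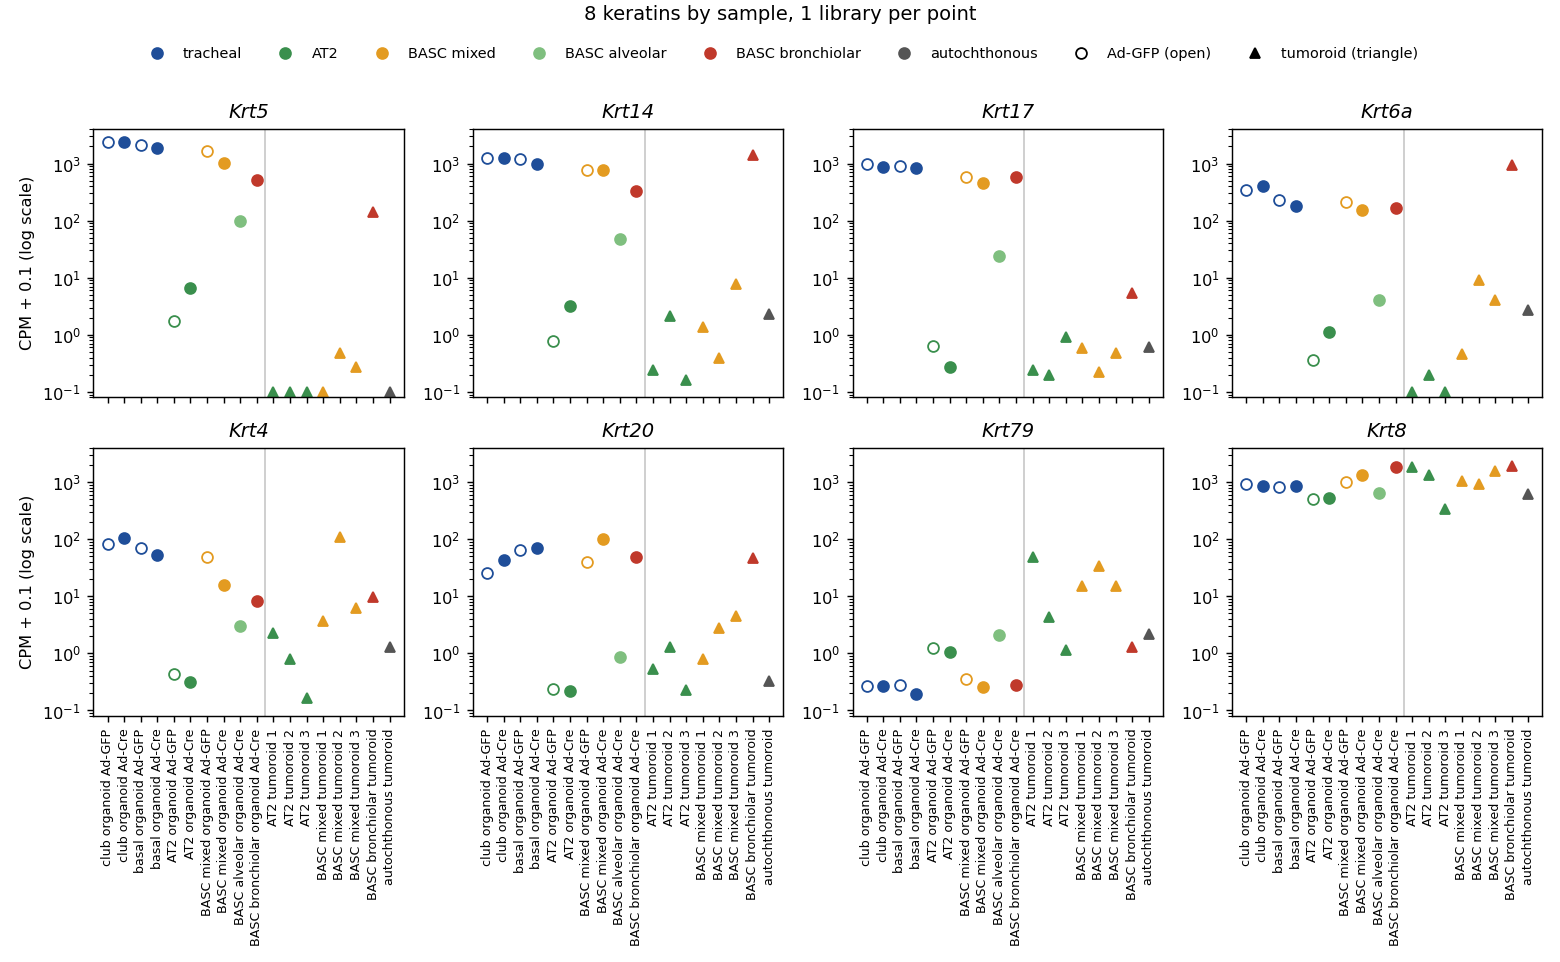
CPM plus 0.1 on a log axis for 8 keratins in each library, coloured by origin (circles organoids, open for Ad-GFP; triangles tumoroids). Krt5, Krt14, Krt17 and Krt6a fall from tracheal to AT2 organoids; in the bronchiolar tumoroid (red triangle) Krt14 and Krt6a are at their highest while Krt17 is at 5.23 CPM.

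The stress keratins split in the tumoroids. Krt17 (ENSMUSG00000035557, chr11:100256217-100261029), a type I keratin, was at 970.1, 859, 909 and 836 CPM in the tracheal organoids (club Ad-GFP and Ad-Cre, basal Ad-GFP and Ad-Cre). It was at 0.545 and 0.171 CPM in AT2, 570.1 and 458 CPM in mixed BASC, 23.7 CPM in alveolar BASC and 570.2 CPM in bronchiolar BASC organoids. In the tumoroids it was at 0.0945 to 0.808 CPM in 7 of 8 and at 5.23 CPM in the bronchiolar one, so all 8 lay below 4 of the 6 distal organoids. Only 3.99% of the 50-base stretches of Krt17 occur in other genes.

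Krt6a (ENSMUSG00000058354, chr15:101689910-101694307), the type II keratin induced in wounds, was at 350.1 and 399 CPM in club and 230.1 and 182 CPM in basal organoids. Distal organoids had 0.265 and 1.03 CPM (AT2), 212 and 152 CPM (mixed BASC), 3.94 CPM (alveolar BASC) and 167 CPM (bronchiolar BASC). AT2 tumoroids had 0, 0.0945 and 0 CPM, mixed BASC tumoroids 0.353, 8.91 and 3.98 CPM and the autochthonous tumoroid 2.62 CPM. The bronchiolar tumoroid had 951 CPM, the highest of the series. Against the bronchiolar organoid that was 5.70 times as high (5.56 to 5.83), while Krt17 was 109 times lower (90.9 to 131.8). The TPM ratio of Krt6a to Krt17 was 0.113 to 0.315 in the 8 organoids other than the AT2 ones, whose values of both genes were at most 1.03 CPM. It was 123.5 in the bronchiolar tumoroid.

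Krt6b and Krt16, close relatives of Krt6a and Krt17, gave a further split. Between the bronchiolar organoid and tumoroid Krt6b was 2.89 times as high in the tumoroid, and Krt16 0.642 times as high (0.594 to 0.694). Krt6b, on chromosome 15 next to Krt6a, was at 46.9 and 32.5 CPM in club and 20.8 and 17.6 CPM in basal organoids, 25.4 and 12.4 CPM in mixed and 11.8 CPM in bronchiolar BASC organoids, and at most 0.352 CPM in the AT2 and alveolar BASC organoids. It was at 34 CPM in the bronchiolar tumoroid, and 5 of the other 7 tumoroids had 0 counts. Krt16, the type I neighbour of Krt17, was at 15.8 to 17.6 CPM in all tracheal organoids, 19.3 and 33.2 CPM in mixed and 54.7 CPM in bronchiolar BASC organoids, 35.1 CPM in the bronchiolar tumoroid, and at most 1.06 CPM elsewhere. Krt6a and Krt6b share 40.3% of the 50-base stretches of Krt6a, and 37.6% of those of Krt16 occur in other genes, so the split of reads between them is uncertain.

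Of the luminal keratins, Krt4 (ENSMUSG00000059668), the type II keratin of stratified mucosa above the basal layer, was at 83.4, 104, 71.3 and 53.7 CPM in tracheal organoids and at 48.6 and 15.8 CPM in mixed BASC organoids, Ad-GFP before Ad-Cre. The bronchiolar and alveolar BASC organoids had 8.06 and 2.91 CPM and the AT2 organoids 0.335 and 0.214 CPM. Its highest value, 108 CPM, was that of mixed BASC tumoroid 2, against 3.53 and 6.19 CPM in mixed BASC tumoroids 1 and 3, 0.0622 to 2.14 CPM in AT2 tumoroids, 9.48 CPM in the bronchiolar and 1.19 CPM in the autochthonous tumoroid. Krt13, the type I partner of Krt4, was at 53.7, 44, 27.9 and 23.8 CPM in tracheal and 43 and 14.7 CPM in mixed BASC organoids, and at most 4.82 CPM elsewhere. In mixed BASC tumoroid 2 it was at 0.206 CPM (5 counts), so that the TPM ratio of Krt4 to Krt13, 0.776 to 2.97 in the 8 organoids other than the AT2 ones, was 398.7 there. That library also had 735 CPM of Scgb1a1 and 24.1 CPM of Trp63, the basal cell transcription factor p63, the highest of the AT2 and mixed BASC tumoroids. Other club and basal genes did not go with these: it had 0.454 CPM of Scgb3a2, 0.495 of Scgb3a1, 0.371 of Krt5, 0.289 of Krt14 and 0.0413 of Ngfr. Its Cyp2f2, at 470 CPM, was below mixed BASC tumoroid 1 (551 CPM) and AT2 tumoroid 1 (490 CPM). Whether airway cells in that culture carried its Krt4 was not tested.

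The simple keratins were present in every library. Krt8 (ENSMUSG00000049382, chr15:101996698-102004482), the type II keratin of simple epithelium, was at 817 to 927 CPM in tracheal, 505 and 522 CPM in AT2, 1005 and 1329.9 CPM in mixed BASC, 644 CPM in alveolar and 1857 CPM in bronchiolar BASC organoids. In tumoroids it was at 341 CPM in AT2 tumoroid 3 and at 619.7 to 1913 CPM in the other 7. The ranges of tracheal organoids, distal organoids and tumoroids overlapped. Krt18, its type I partner, was at 687 to 752 CPM in tracheal organoids, 209 to 1395 CPM in distal ones and 218 to 1196 CPM in tumoroids. The TPM ratio of Krt8 to Krt18 was 0.857 to 1.85 over all libraries, with the AT2 Ad-GFP organoid highest. Of the 50-base stretches of Krt8, 29.7% occur in other genes, mainly the pseudogene Krt8-ps.

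Krt7 and Krt19 separated airway from alveolar cultures more than Krt8 did. Krt7, a type II keratin of ducts and airways, was at 1535 to 1928 CPM in tracheal, 1326 and 2204 CPM in mixed BASC and 2477 CPM in bronchiolar BASC organoids, and at 2698 CPM in the bronchiolar tumoroid. All other libraries had 57.9 to 729 CPM. Krt19, a type I keratin of the same epithelia, was at 1352 to 1820.2 CPM in the 7 organoids just named, 2648 CPM in the bronchiolar tumoroid and 139.5 to 1134 CPM elsewhere. Krt20, a type I keratin best known from gut and urothelium, was at 25.4 and 43.5 CPM in club and 65.4 and 70.6 CPM in basal organoids, 39.8 and 103 CPM in mixed BASC, 48.6 CPM in bronchiolar BASC organoids and 47 CPM in the bronchiolar tumoroid. Elsewhere it was at 0.118 to 4.41 CPM.

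**Figure D4:**
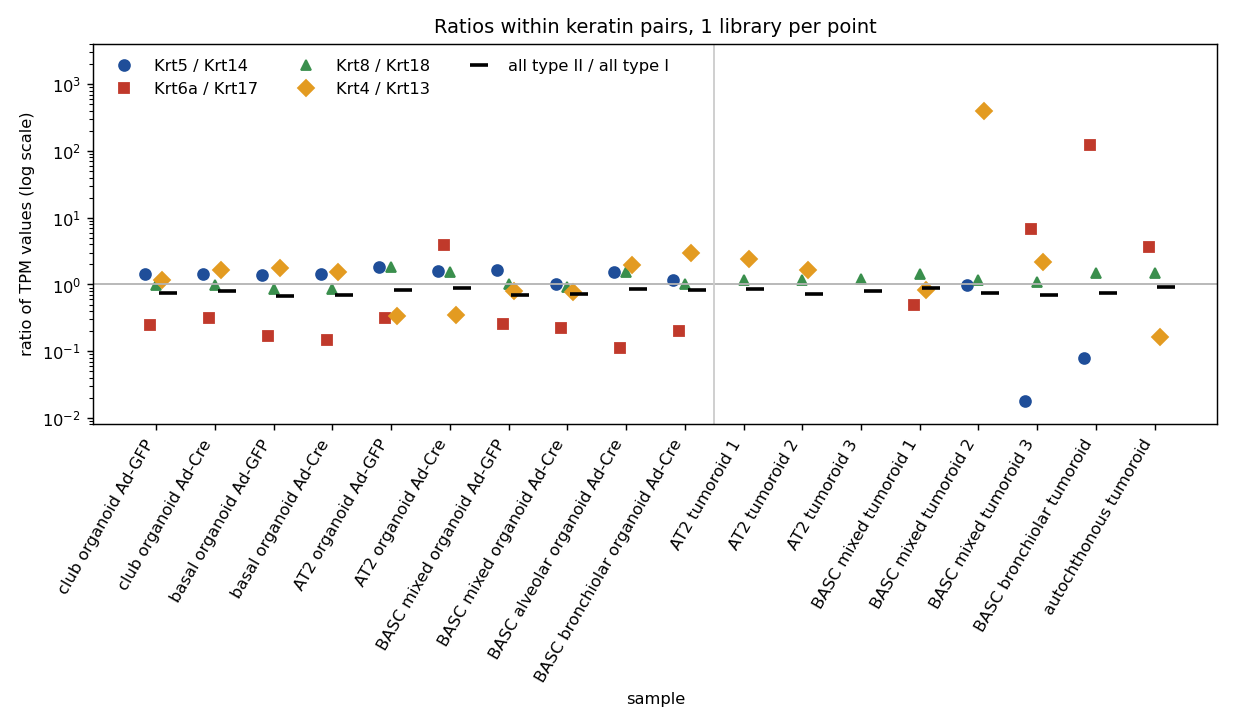
TPM ratios within keratin pairs and of all type II to all type I keratins in each library, on a log axis. A pair is left out where either member had 3 counts or fewer, so the 5 tumoroids with 0 counts of Krt5 have no Krt5 to Krt14 point. Krt8 to Krt18 and type II to type I stay between 0.678 and 1.85. Among the tumoroid points drawn, Krt5 to Krt14 is as low as 0.0780 (bronchiolar) and 0.0178 (mixed BASC 3). Krt6a to Krt17 reaches 123.5 and Krt4 to Krt13 reaches 398.7.

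The first comparison asked whether keratins differ between tracheal organoids (4) and distal-lung organoids (6). None of the 29 keratins tested passed an adjusted p of 0.05 in edgeR's quasi-likelihood test with Benjamini-Hochberg adjustment over all genes, where 0.276% of the 18103 genes tested did. Of the 29, 22 leaned higher in trachea. Only 2, Krt79 and Krt78, had an unadjusted p under 0.05, and both were lower in trachea. Of the 18103 genes, 5371 had such a p. DESeq2 called 1, Krt79. The distal group held both AT2 and BASC cultures, and its spread was as large as its mean: Krt5 was at 2183 ± 242 CPM (SD, n = 4) against 547 ± 667 CPM (SD, n = 6), or 1.99 ± 1.34 higher on the log2 scale (SE; edgeR adjusted p = 0.333). Without the mixed BASC Ad-GFP organoid, 3 keratins were called, Krt4, Krt13 and Krt15, all higher in trachea. The share of all genes called in that fit is not given here.

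Tracheal organoids differed in most keratins from the 2 AT2 organoids alone. Of 29 keratins tested in this smaller fit, 24 were higher in trachea, 2 were lower and 3 (Krt10, Krt23 and Krt84) did not pass. Of all 18705 genes tested, 32.7% were higher and 32.1% lower. Several of the 24, such as Krt16, Krt90 and Krt75, with means of 0.0617, 0.0177 and 0 CPM in AT2 organoids, passed the low-count filter only through the tracheal libraries. Those could only come out higher. Krt17 was at 893.5 ± 59.4 CPM (SD, n = 4) in trachea and at 0.358 ± 0.264 CPM (SD, n = 2) in AT2 organoids, which is 11.3 ± 0.42 higher on the log2 scale (SE; edgeR adjusted p = 4.6e-07). Here n counts libraries: the 2 AT2 libraries are the Ad-GFP and Ad-Cre aliquots of the same sorted population, and the tracheal libraries are such pairs too. The p-values of this fit therefore do not measure the spread between independent sorts. Among the simple keratins the differences ran from 0.69 ± 0.10 for Krt8 and 1.57 ± 0.12 for Krt18 through 2.11 ± 0.14 for Krt19 and 2.70 ± 0.23 for Krt7 to 8.58 ± 0.64 for Krt20 (log2, SE). The 2 that were lower in trachea were Krt79, at 0.153 ± 0.0405 against 1.06 ± 0.121 CPM, and Krt78, at 1.16 ± 0.244 against 3.96 ± 3.17 CPM (SD). Krt79 is a type II keratin known from the canal of the hair follicle. Among the tracheal libraries all 4 were below both AT2 libraries for Krt79. General epithelial genes differed as well: the geometric mean of 9 of them was 199.9 to 216.2 CPM in tracheal and 107.7 and 118.3 CPM in AT2 organoids. Summed fibroblast genes were at 1998 to 2165 and at 7144 and 7231 CPM. The part of this in the keratin differences, such as the small ones of Krt8 and Krt18, was not tested.

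Basal (2) and club (2) organoids were compared within the trachea. Basal organoids were lower in Krt13 (25.8 ± 2.91 against 48.9 ± 6.82 CPM, SD; log2 fold change -0.93 ± 0.13, SE; edgeR adjusted p = 0.0398) and Krt6a (206 ± 33.9 against 374 ± 34.4 CPM; -0.87 ± 0.13; edgeR adjusted p = 0.0442). No other of the 28 keratins tested passed, and 0.186% of 17234 genes were called lower. Krt6b leaned the same way (-1.06 ± 0.17, edgeR adjusted p = 0.0702), as did its stratified relative Krt4 (-0.59 ± 0.15, adjusted p = 0.24), and Krt20 the other way (0.97 ± 0.20, adjusted p = 0.146). Krt5 and Krt14, the markers of the sorted basal cell, were at 1997 ± 185 and 1087 ± 137 CPM in basal and 2370 ± 38 and 1249 ± 19.3 CPM in club organoids (SD, n = 2), with adjusted p of 0.604 and 0.717 in edgeR. The Krt6a call was lost without the basal Ad-Cre organoid (adjusted p = 0.106), and leaving out 1 club organoid raised the count of calls from 2 to 5. Virus is not replicated within either population, so each pair of libraries also spans Ad-GFP and Ad-Cre.

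No keratin was called between Ad-Cre and Ad-GFP organoids, compared over 4 matched populations (club, basal, AT2 and mixed BASC) with the population as a block. Of the 29 tested, 4 had an unadjusted p under 0.05, as had 350 of the 17749 genes tested, of which 0% passed the adjusted threshold. DESeq2 called no keratin either. The 4 were Krt20 (log2 fold change 0.67 ± 0.24, SE) and Krt7 (0.41 ± 0.17), both higher after Ad-Cre, and Krt13 (-0.79 ± 0.27) and Krt15 (-0.96 ± 0.34), each with an edgeR adjusted p of 0.994. Krt13 and Krt15 were lower after Ad-Cre in all 4 pairs. In the mixed BASC pair Krt15 went from 431 to 105 CPM and Krt13 from 43 to 14.7 CPM, and in the AT2 pair, at far lower levels, Krt15 went from 4.11 to 1.65 CPM and Krt13 from 0.601 to 0.246 CPM. In the tracheal pairs Ad-Cre values were 0.765 to 0.916 of those with Ad-GFP. Krt4 went from 48.6 to 15.8 CPM and Krt20 from 39.8 to 103 CPM in the mixed BASC pair. The mixed BASC pair also moved in Sftpc, from 96.5 to 669 CPM, and the part of a changed mix of cells was not tested. In a test of whether the Ad-Cre effect differed between trachea and distal lung, no keratin passed (Krt13 had the smallest edgeR p, 0.00176 unadjusted and 0.46 adjusted).

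Distal tumoroids (7) were compared with distal Ad-Cre organoids (4). Of 20 keratins tested, Krt79 was higher in tumoroids, and Krt17 and Krt87 were lower, where 10.8% of all 16139 genes were called higher and 8.77% lower. Krt17 was at 1.04 ± 1.87 CPM (SD, n = 7) in tumoroids and 263 ± 294 CPM (SD, n = 4) in organoids (log2 fold change -7.93 ± 1.66, SE; edgeR adjusted p = 0.00837). The groups overlapped through the AT2 organoid, at 0.171 CPM. The Krt17 call held in each of the 20 alternatives in which it was tested, with log2 fold changes of -9.56 to -5.08, among them the fit without the bronchiolar tumoroid and the fit without AT2 tumoroid 3.

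Krt79 was at 17.1 ± 18.3 CPM (SD, n = 7) in the tumoroids against 0.820 ± 0.856 CPM (SD, n = 4) in the organoids (log2 fold change 4.41 ± 1.31, SE; edgeR adjusted p = 0.0365). By library it was at 49.3, 4.16 and 1.06 CPM in AT2 tumoroids, 15, 34 and 15 CPM in mixed BASC tumoroids and 1.21 CPM in the bronchiolar tumoroid, against 0.974, 0.160, 1.97 and 0.175 CPM in the AT2, mixed, alveolar and bronchiolar organoids. The call rested on many libraries: it was lost on leaving out any 1 of AT2 tumoroid 1, the 3 mixed BASC tumoroids and the AT2, mixed and bronchiolar BASC organoids (adjusted p 0.0523 to 0.0957). Krt87, a hair type II keratin of which 36.9% of the 50-base stretches occur in other genes, was at 2.80 ± 2.02 against 12.7 ± 9.85 CPM (-2.13 ± 0.61, edgeR adjusted p = 0.0322) and its call was lost without any 1 of 6 libraries. Krt5 had a log2 fold change of -4.27 ± 2.21 (adjusted p = 0.198) and Krt15 of -3.01 ± 1.08 (adjusted p = 0.0729). With the bronchiolar tumoroid left out, 7 keratins were called instead of 3, among them Krt5 and Krt14, both lower. The share of all genes called in that fit is not given here, so the rise need not be particular to keratins.

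Bronchiolar BASC cultures (1 organoid and 1 tumoroid) were compared with alveolar cultures (AT2 and alveolar BASC Ad-Cre organoids and 3 AT2 tumoroids), with platform as a term. Of 24 keratins tested, 5 were higher and none lower, where 1.38% and 0.722% of 16763 genes were called higher and lower. In all, 15 keratins had an unadjusted p under 0.05, all higher, as had 3023 of the 16763 genes in either direction. DESeq2 called 14 keratins, 13 of them higher, and its share of all genes called is not given here. The 5 were Krt20 (47.8 ± 1.09 against 0.527 ± 0.455 CPM, SD; log2 fold change 6.50 ± 0.88, SE; edgeR adjusted p = 0.0291), Krt16 (35.1 and 54.7 against 0.0535 to 1.06 CPM; 6.80 ± 0.87; edgeR adjusted p = 0.0263), Krt90 (edgeR adjusted p = 0.0217), Krt6b (edgeR adjusted p = 0.0387) and Krt6a (edgeR adjusted p = 0.0469). The last 3 were at or near 0 counts in some alveolar libraries, so that their fitted log2 fold changes of 8.32, 8.36 and 11.0 depend on the model's small added count. Krt90, Krt6b, Krt75 and Krt84 reached at most 0.188, 0.352, 0.0945 and 0.289 CPM in the alveolar cultures. They passed the low-count filter only through the bronchiolar libraries and could only come out higher, so the direction of the counts above is in part fixed. For all 5 called keratins, both bronchiolar libraries lay above all 5 alveolar ones, which adds no support, since the same libraries gave the calls. Krt14 (9.05 ± 2.29, edgeR adjusted p = 0.108), Krt5 (8.53 ± 2.20, adjusted p = 0.112) and Krt7 (3.03 ± 0.63, adjusted p = 0.0703) were also higher in both, and did not pass. The count was 0 without either bronchiolar library, without the AT2 organoid or without AT2 tumoroid 1, 1 without the alveolar BASC organoid, 2 without AT2 tumoroid 2 and 11 without AT2 tumoroid 3. Scaling to epithelial genes left no keratin called.

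**Figure D5:**
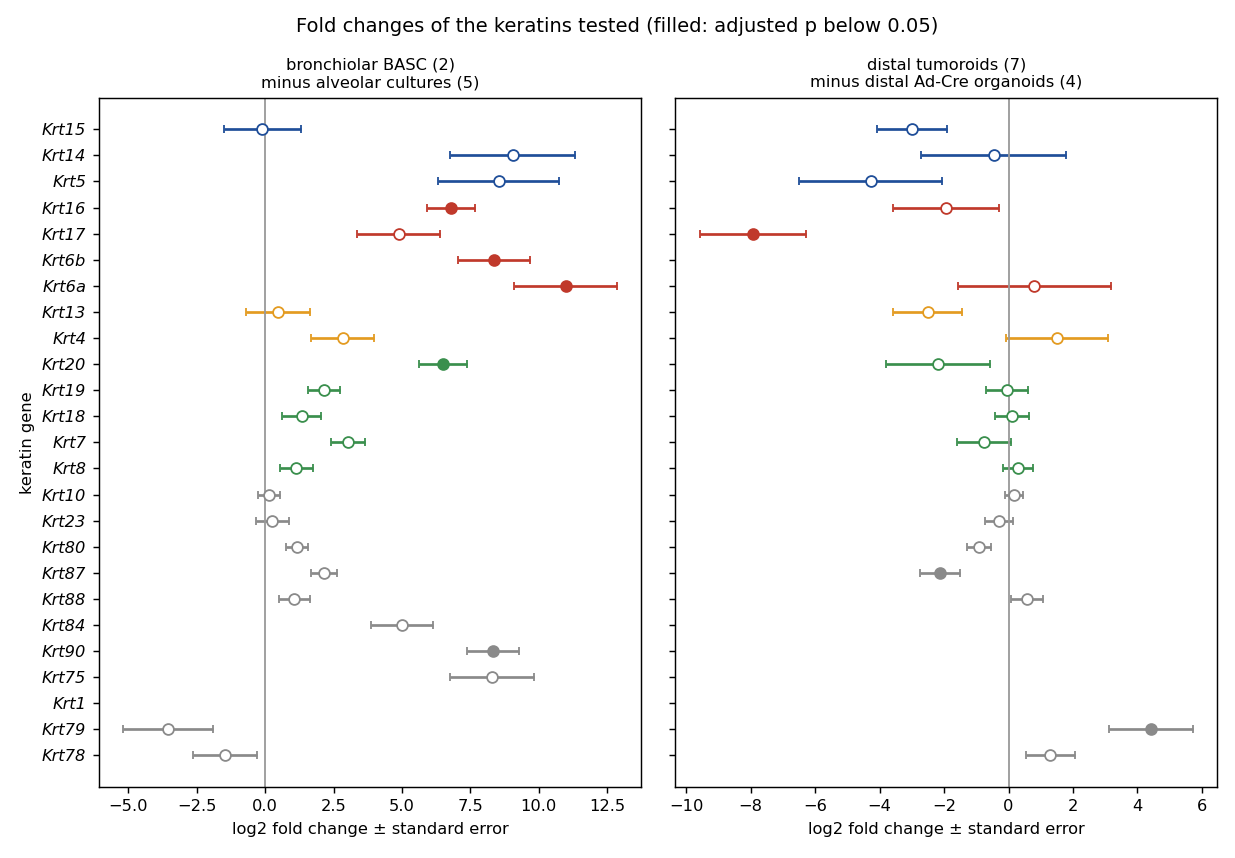
Log2 fold changes with standard errors of the keratins tested in 2 comparisons, bronchiolar BASC against alveolar cultures (left) and distal tumoroids against distal Ad-Cre organoids (right); filled points have an edgeR adjusted p below 0.05. On the left Krt16, Krt6b, Krt6a, Krt20 and Krt90 are filled and positive, and on the right Krt17 and Krt87 are filled and negative and Krt79 filled and positive.

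Whether the bronchiolar effect differed between tumoroid and organoid was tested as an interaction, and no gene passed. The smallest p-values among keratins were those of Krt6a (difference 8.56 ± 1.75 on the log2 scale, SE) and Krt6b (8.02 ± 1.45), each with an edgeR adjusted p of 1. Between AT2 (3) and mixed BASC (3) tumoroids, none of 17 keratins and 0% of 15470 genes passed, and DESeq2 called no keratin. Krt4 alone had an unadjusted p under 0.05 (log2 fold change -5.33 ± 1.74, SE; edgeR adjusted p = 1). Its mean of 39.3 ± 59.6 CPM (SD, n = 3) in the mixed BASC tumoroids was set by tumoroid 2.

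The remaining members were low. Krt23, a type I keratin, was at 12.3 to 76.6 CPM and Krt80, a type II keratin, at 4.41 to 29.4 CPM in all 18 libraries, each lowest in AT2 tumoroid 3. Krt10, best known from differentiated epidermis, was the flattest of the named members, at 2.38 to 5.51 CPM. Krt90 was at 9.89 to 24.1 CPM in the tracheal, mixed BASC and bronchiolar BASC organoids, 5.32 CPM in the bronchiolar tumoroid and at most 0.188 CPM elsewhere, and Krt75, a type II keratin of hair follicles, had the same split at 1.48 to 9.35 CPM against at most 0.0945 CPM. Krt84 passed 1 CPM only in the bronchiolar organoid (1.63 CPM) and tumoroid (3.44 CPM). Krt1, the epidermal partner of Krt10, reached 1.89 CPM at most and Krt88 1.52 CPM. Krt78 was highest in the autochthonous tumoroid (12.5 CPM), followed by AT2 tumoroid 1 (9.15 CPM) and mixed BASC tumoroids 3 and 1 (8.22 and 7.72 CPM).

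Genes that anchor, control or accompany keratin filaments were counted by call, beside the shares of all genes. Over all genes, 0.186% were lower in basal than in club organoids, and 1.38% higher in bronchiolar than in alveolar cultures. In distal tumoroids against distal Ad-Cre organoids, 10.8% were higher and 8.77% lower. Of 13 genes of filament linkers and desmosomes, 1 was lower in basal than in club organoids (Dsc3, a desmosomal cadherin) and 1 higher in bronchiolar than in alveolar cultures (Pkp1, plakophilin 1, at 529 ± 4.09 against 5.97 ± 8.45 CPM, SD; edgeR adjusted p = 0.0329). Of 8 regulators, 1 was called in any of the 6 comparisons: Trp63, at 127 ± 7.35 CPM in bronchiolar and 4.51 ± 4.99 CPM in alveolar cultures (edgeR adjusted p = 0.0226). Of 12 genes of the cornified envelope, 8 were tested between bronchiolar and alveolar cultures, and Sprr1a and Sprr3 were higher in bronchiolar ones. Sprr3, at no more than 0.0469 CPM in any alveolar culture, passed the low-count filter only through the bronchiolar ones. In the tumoroid comparison 6 of the 12 were tested, and Ivl (involucrin) was lower in distal tumoroids. Of 6 other intermediate filament genes, 4 were tested in the tumoroid comparison. Prph (peripherin) was higher in distal tumoroids, at 8.43 ± 4.71 against 2.71 ± 0.559 CPM (SD; edgeR adjusted p = 0.0244). Trp63 was at 121.8 CPM in the bronchiolar tumoroid and 132.2 CPM in its organoid counterpart, and Pkp1 at 526 and 532 CPM. Dsg3, a desmosomal cadherin of basal cells, was at 10.3 against 43.9 CPM in the same pair.

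Markers of other cell types moved with several of these results. The summed level of 5 AT2 genes was 15525 to 87079 CPM in the AT2, alveolar BASC, mixed BASC tumoroid and autochthonous libraries, 578 and 2252 CPM in mixed BASC organoids, 2198 and 6179.5 CPM in the bronchiolar organoid and tumoroid, and 115 to 167 CPM in trachea. The summed level of 5 fibroblast genes was 1915 to 7231 CPM in organoids and 528 to 10193 CPM in tumoroids. The 4 club genes summed to 2545 to 5191 CPM in the tracheal, mixed BASC and bronchiolar organoids and the bronchiolar tumoroid and 59.2 to 1206 CPM elsewhere, and the 4 ciliated cell genes to 154 to 1064 and 6.43 to 62.2 CPM. In the bronchiolar tumoroid nearly all of the ciliated sum of 224.23 CPM was Foxj1, at 221.64 CPM. There Tppp3 was at 2.2356 CPM, Ccdc78 at 0.3577 CPM and Dnah5 at 0 CPM, so the sum does not show ciliated cells in that culture. The 4 alveolar type 1 genes summed to 1089 to 4438 CPM over all libraries, but their members differed. In tracheal organoids Aqp5 made up most of the sum (1193 to 1281 CPM) and Ager was at 2.61 to 3.31 CPM. Ager was at 523 to 3382 CPM in the AT2 and alveolar BASC organoids and the tumoroids other than the bronchiolar one. Summed endothelial genes were at most 9.56 CPM, 3 immune genes at most 65.4 CPM and 3 smooth muscle genes at most 303 CPM. Their part in the keratin levels was not tested. Msln, Upk3b and Wt1, listed as mesothelial genes because that tissue also holds simple keratins, summed to 952.6 to 2502 CPM in the tracheal, mixed BASC and bronchiolar organoids and 5.47 to 181 CPM in the AT2 and alveolar BASC organoids and the tumoroids other than the bronchiolar one (650.5 CPM).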

How the data were processed

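Gene tables of 18 libraries were used. Per the labels and the study's methods, reads were trimmed with Trimmomatic 0.39 and aligned to GRCm38 with STAR 2.6.1d, and the authors estimated expected counts and TPM per gene with RSEM 1.3.2, so both deposited units divide reads that fit several genes by a model. The deposited TPM values were used for ratios between genes and for shares. RSEM's effective lengths correspond to a fragment or read length of 63.4 bases in organoids and 49.9 bases in tumoroids. Which of these was meant was not given. IDs were matched to GENCODE vM21 (46091 of 46603), with 39 of 40 listed partner genes found.

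Expected counts were rounded, filtered with filterByExpr, scaled by TMM and tested in edgeR 4.0.16 (R 4.3.3) with the quasi-likelihood F test, at an adjusted p of 0.05 over all genes tested. A standard error is the size of the log2 fold change divided by the square root of F. The 6 comparisons were tracheal against distal-lung organoids, basal against club, Ad-Cre against Ad-GFP with population as a block, distal tumoroids against distal Ad-Cre organoids, AT2 against mixed BASC tumoroids, and bronchiolar against alveolar cultures with platform as a term. Tracheal against AT2 organoids is the first of these with the BASC libraries left out. Alternatives used DESeq2 1.42.0, limma 3.58.1 on log2(TPM + 1), other scalings and filters, and each library left out. The scripts were tested on simulated data. Members reaching 1 CPM in some library were named, and those reaching 10 CPM in full. The members and gene lists were chosen with earlier results of these data known. Shared sequence was measured as the share of a gene's 50-base transcript stretches that also occur, on either strand, in transcripts of another gene. A count of 0 allows up to 3 counts, which is 0.0321 to 0.187 CPM. Pairs of replicate tumoroids differed by more than counting noise (chi-square per degree of freedom 97.6 to 356).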

Additional observations from a re-analysis of the deposited data

Results flagged for a closer look

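In the 7 transplant tumoroids, the bronchiolar one stood apart as the highest for Krt90, Krt6b, Krt16 and Krt5, with gaps to the next library of 0.867, 0.846, 0.792 and 0.731 of the range of log2 values. AT2 tumoroid 3 stood apart as the lowest of these for Krt8, with a gap of 0.589, and as the lowest of the 5 alveolar cultures for Krt7, with a gap of 0.857, in the library whose epithelial genes were also lowest. In the same 5 alveolar cultures the alveolar BASC organoid was far above the others for Krt90 (gap 0.770), at 0.188 CPM and 8 counts. Among the 4 tracheal organoids the basal Ad-Cre one was lowest for Krt79 (gap 0.891), at 0.0924 CPM and 5 counts. Of 100 such groups examined 8 were marked, where chance marks about 1 in 20.

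The autochthonous tumoroid enters no comparison between groups. Its Krt79 (2.07 CPM) and Krt78 (12.5 CPM) lay above every Ad-GFP organoid, in which the mutant allele is off. The highest Ad-GFP values were 1.15 and 6.20 CPM, both in the AT2 organoid.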

How the results depend on the processing

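The counts of keratins called for Ad-Cre against Ad-GFP organoids and for AT2 against mixed BASC tumoroids were 0 under every alternative run. Tracheal against distal-lung organoids gave 0, but 1 with DESeq2, 26 against AT2 organoids alone and 0 to 3 with 1 library left out. Basal against club organoids gave 2, but 4 with DESeq2, 1 with DESeq2's size factors in edgeR, 7 with no filter, 0 with limma on log2(TPM + 1), 4 with the virus as a replicate block and 2 to 5 with 1 library left out. The virus block pairs 2 libraries per population and changed no direction. Distal tumoroids against distal Ad-Cre organoids gave 3, but 1 with epithelial scaling, 1 with a minimum of 10 CPM, 5 with Ad-GFP organoids added and 1 to 7 with 1 library left out. Bronchiolar against alveolar cultures gave 5, but 14 with DESeq2, 0 with epithelial scaling, 11 with no filter, 10 with limma, 12 with the mixed BASC tumoroids added, 10 with the AT2 Ad-GFP organoid added and 0 to 11 with 1 library left out. Over all genes, the tracheal count of 50 became 3678 with DESeq2. Counts over all genes can thus move with the fit, and changes in the keratin counts need not be particular to keratins.

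Epithelial scaling moved the median log2 fold change of all genes by -0.45 (trachea against distal lung), 0.51 (tumoroids against organoids), 0.86 (AT2 against mixed BASC tumoroids) and -1.05 (bronchiolar against alveolar). In the tumoroid comparison 63 of 96 genes called were then higher, against 1751 of 3167, and Krt17 remained called at -7.48. Of 634 repeats of 38 tests on named keratins, 525 kept direction and side of the threshold, 55 lost a call, 51 gained one and 3 reversed. The 3 were all Krt8 between trachea and distal lung, at 0.0497 with limma, 0.69 against AT2 organoids alone and -0.32 to 0.07 with 1 library left out (0.0748 without the bronchiolar organoid), against -0.20 in the reported fit. The causes were not tested.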
